A study of Mus musculus with 7 samples.

Results

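The tachykinins are a family of neuropeptides that share the carboxy-terminal motif Phe-X-Gly-Leu-Met and act on G protein-coupled receptors. Each peptide is cut from a longer precursor in the secretory pathway, amidated at its last residue and released from dense-core vesicles, and its receptors couple mainly to Gq, which activates phospholipase C and releases calcium from internal stores. *Tac1* encodes the precursor of substance P and neurokinin A, *Tac2* that of neurokinin B and *Tac4* that of hemokinin-1. *Tacr1* encodes the receptor preferred by substance P, *Tacr2* the one preferred by neurokinin A and *Tacr3* the one preferred by neurokinin B. In the brain the family is known for roles in pain, fear, aggression and the control of reproductive hormones. The 6 genes were chosen by their symbols out of 52636 genes in the files, 3 for the ligand precursors and 3 for the receptors, and all 6 are listed in the files of all 7 libraries, some at 0 counts.

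RNA-seq of polyadenylated RNA was carried out by the study on dorsal midbrain from newborn mice that carry a conditional deletion of *Brn3b* (*Pou4f2*), a POU-domain transcription factor of neurons in the superior colliculus. Each of the 3 control mice (A2 and A6 at P4, A4 at P3) had 1 conditional and 1 wild-type *Brn3b* allele, and each of the 4 conditional knockout (cKO) mice (B1 and B8 at P4, B7 and B9 at P2) had 1 conditional and 1 null allele. All 7 mice carried En1-Cre, so both groups recombined the conditional allele, whose open reading frame is then replaced by a human placental alkaline phosphatase reporter. En1-Cre is active in the developing midbrain and anterior hindbrain, not only in the dorsal midbrain, and not only in neurons that express *Brn3b*. No control was at P2 and no cKO mouse at P3, so genotype and age are partly confounded. The study singled out *Tac2* on these same libraries, so the values of *Tac2* below are not independent evidence of its direction. On independent samples the study reported lower *Tac2* by RT-qPCR, a smaller drop than in these libraries. It also counted fewer *Tac2*-positive cells by in situ hybridization in older mice. Its RT-qPCR showed no significant difference in *Tac1*.

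The libraries held 23588248 to 87572085 counts on genes (median 39251318). *Brn3b*, the targeted gene, was at 46.5, 47.4 and 45.8 CPM (counts per 1000000 counts on genes) in controls A2, A4 and A6 and at 9.65, 9.67, 10.6 and 11.6 CPM in cKO mice B1, B7, B8 and B9, a log2 fold change of −2.16 (SE 0.132, adjusted p = 5.66e-04 from edgeR). It was the 1 gene of 21817 tested that edgeR called at an adjusted p under 0.05. All 7 genes of a dorsal midbrain marker list were counted in every library (819 to 1346 CPM summed). Of 14 marker lists, 1 separated the genotypes, that of the oligodendrocyte lineage (178 to 198 CPM in controls, 225 to 259 CPM in cKO mice), through 1 of its 4 genes, *Pdgfra*. B8 stood apart with 70.9 CPM of serotonergic neuron markers against 2.62 to 19.4 CPM in the other mice, with all 3 genes highest in B8. A4 held 43.0 CPM of cortex and hippocampus markers against 16.9 to 25.1 CPM in the others, and 496 CPM of erythroid markers against 57.7 to 179 CPM. The P2 cKO mice B7 and B9 also stood apart from the other 5 mice in the sums of 5 lists, though not in every gene of each. Their sums were highest for the dorsal midbrain (1228 and 1346 CPM against 819 to 986, with 3 of 7 genes highest in both) and the thalamus (805 and 877 CPM against 475 to 561, 3 of 4 genes). Their sums were lowest for erythroid cells (61.6 and 57.7 CPM against 132 to 496, with 5 of 5 genes lowest in both), microglia (72.8 and 75.7 CPM against 88.5 to 117, 3 of 5 genes) and the hypothalamus (1.79 and 1.55 CPM against 2.82 to 6.92, 2 of 6 genes). Each result below is therefore also given without B8, or without A4 and B8, where the call differs, and the 4 tested members are also given against the P2 and the P4 cKO mice. In tissue RNA, fewer cells of a type and less RNA per cell cannot be told apart.

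The 30 bases of coding sequence that end with the motif codons are shown for each precursor, because they are what defines these genes as ligands of one family. They are in 5′ to 3′ order on the plus strand of GRCm38, from GENCODE transcripts, and the capitals mark the 5 motif codons.

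*Tac1*, substance P: cccaagcctcagcagTTCTTTGGATTAATG
*Tac1*, neurokinin A: cataaaacagattccTTTGTTGGACTAATG
*Tac2*, neurokinin B: gacatgcacgacttcTTTGTGGGACTTATG
*Tac4*, hemokinin-1: agcaggactcgccagTTCTATGGTCTGATG

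The substance P stretch lies in exon 3 of a *Tac1* transcript with 7 exons (chr6:7556735-7556764) and was present in all 3 annotated *Tac1* transcripts that hold a motif. The neurokinin A stretch lies in exon 6 (chr6:7559101-7559130) and was present in 2 of those 3, so a gene-level count does not say how much of either peptide the mRNA encodes. The neurokinin B stretch lies in exon 5 of a *Tac2* transcript with 7 exons (chr10:127729116-127729145), and the hemokinin-1 stretch in exon 2 of the *Tac4* transcript, which has 4 (chr11:95265263-95265292). In the motif codons, neurokinin A and neurokinin B shared 13 of 15 bases, the closest pair of the 4 stretches, and neurokinin B and hemokinin-1 shared 9 of 15. In the 15 bases before the motif, substance P and hemokinin-1 were the closest pair, at 9 of 15, whereas neurokinin A and hemokinin-1 shared 3.

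In the controls the levels of the family spanned a wide range, and 2 members were at the limit of detection. Per kilobase (kb) of merged exon, the mean control level was 22.4 CPM per kb for *Tac1*, 3.69 CPM per kb for *Tacr3*, 2.69 CPM per kb for *Tacr1* and 1.04 CPM per kb for *Tac2*. *Tac1* was above each of the other 3 in all 7 mice, and its range did not approach theirs (13.6 to 25.0 CPM per kb). *Tacr3* and *Tacr1* were neighbours whose control levels overlapped (3.37 to 4.02 against 2.31 to 3.41 CPM per kb), and their order in the cKO mice turned when the longest transcript was used as the length (3.97 CPM per kb for *Tacr3* and 4.36 for *Tacr1*). By the control mean, 88.3% of 21775 genes with a level per kb were below *Tac1* (rank 2548), 54.7% below *Tacr3* (rank 9859), 48.7% below *Tacr1* (rank 11180) and 32.6% below *Tac2* (rank 14670). By the cKO mean these shares were 85.8% for *Tac1*, 55.0% for *Tacr3*, 52.1% for *Tacr1* and 4.56% for *Tac2*. In both genotypes the mRNA of the substance P precursor was thus in the upper part of the genes tested in dorsal midbrain and both receptors were near the middle.

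**Figure D1:**
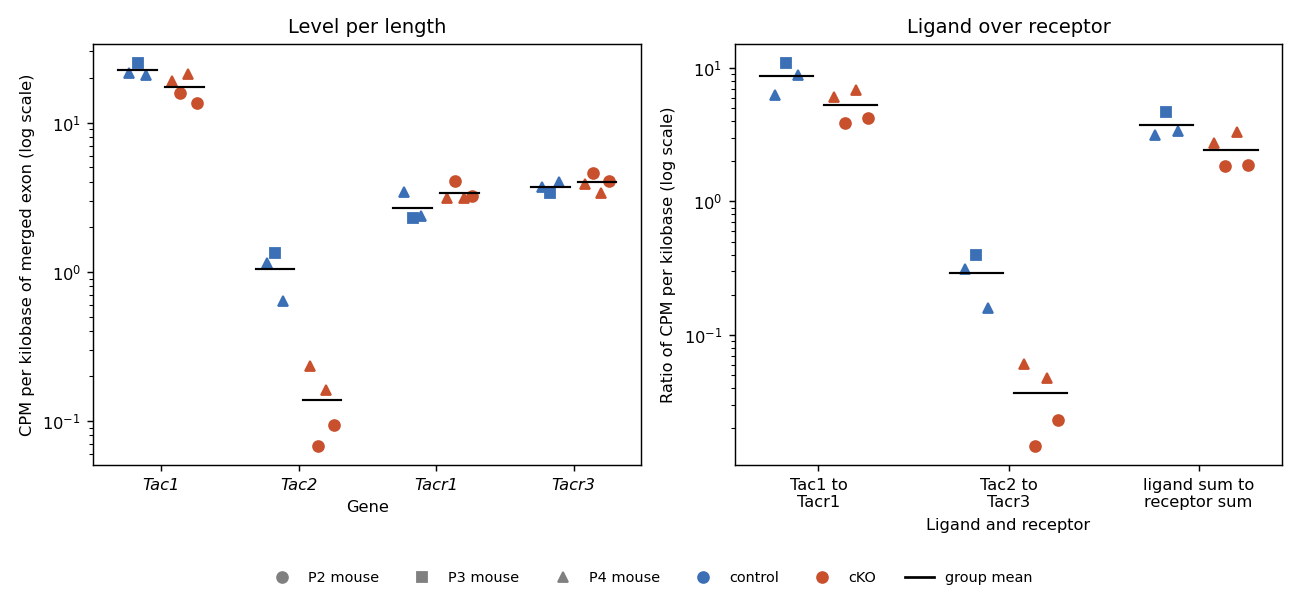
Level of the 4 tested genes in CPM per kilobase of merged exon (left) and ratios of ligand to receptor levels (right), both on log axes, with 1 point per mouse, shapes for age and a line at each group mean. *Tac1* lies above the other genes in every mouse, and the *Tac2* to *Tacr3* ratio of every cKO mouse (0.0147 to 0.0602) lies below that of every control (0.158 to 0.399).

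*Tac4* and *Tacr2* could not be compared. *Tac4* (ENSMUSG00000020872.4, chr11:95261529-95269265) had 4 counts in A4, 3 counts in B1 and 0 in the other 5 mice. *Tacr2* (ENSMUSG00000020081.5, chr10:62252438-62265990) had 1 count in each of A2 and A4, 2 in each of B7 and B9 and 0 in the other 3 mice. Taking 3 counts as the floor, a library with 0 counts allows a level of up to 0.0353 CPM in B9, the deepest library, and 0.125 CPM in A2, the shallowest. Both genes failed the filter on low counts, which the other 4 of the 6 members passed. Hemokinin-1 is known mainly from immune cells, and the neurokinin A receptor mainly from smooth muscle and other peripheral tissue.

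The first comparison asked which members differed between the genotypes. Of the 4 members tested, edgeR called 0 at an adjusted p under 0.05, where it called 0.00458% of all genes, and 1 (*Tac2*) had an unadjusted p under 0.05, as did 30.4% of all genes. DESeq2, the tool of the study, called 1 member (*Tac2*, lower in cKO mice) and 10.4% of all genes. In 1 member (*Tac2*) every cKO mouse was below every control in CPM, as in 8.01% of genes tested, and in 0 members was every cKO mouse above every control, as in 6.03%. With 3 controls and 4 cKO mice, the exact permutation test over mice cannot give a two-sided p below 0.05714.

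**Figure D2:**
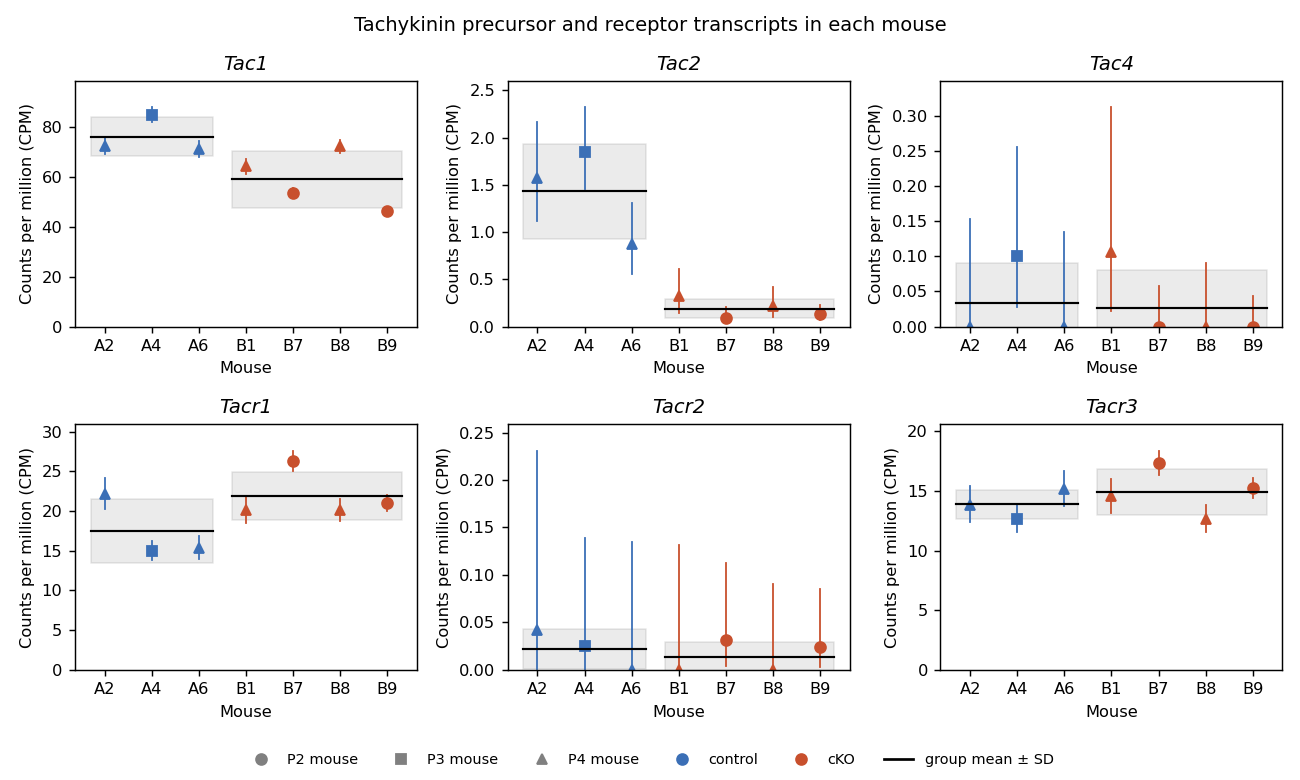
CPM of each of the 6 genes in each mouse, with 95% Poisson intervals of the count as vertical bars, group means as black lines and ± 1 SD as grey bands. *Tac2* is the 1 tested gene whose groups do not overlap, the *Tac1* levels of the P2 cKO mice B7 and B9 (53.8 and 46.3 CPM) are below all others, and *Tac4* and *Tacr2* are at a few counts or 0.

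*Tac1* (ENSMUSG00000061762.12, chr6:7554879-7565834, plus strand) was at 72.6, 85.1 and 71.1 CPM in controls A2, A4 and A6, and at 64.3, 53.8, 72.4 and 46.3 CPM in cKO mice B1, B7, B8 and B9. The groups overlapped through B8, which was above A6 and just below A2, and the P2 mice, which also differed in the 5 marker lists named above, were the lowest. The part of those differences in the level of *Tac1* was not tested. Controls averaged 76.3 ± 7.69 CPM (SD, n = 3). The cKO mice averaged 59.2 ± 11.5 CPM (SD, n = 4), which is 77.6% of the control mean. The log2 fold change was −0.37 (SE 0.170, 95% interval −0.75 to 0.01), with an adjusted p = 0.174 from edgeR and a two-sided exact permutation p = 0.1143 on log2 CPM.

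The call for *Tac1* changed with the mice compared and with the model. Against the 2 P2 cKO mice the log2 fold change was −0.63 (adjusted p = 0.00119 from edgeR), where 46.9% of all genes were called, and against the 2 P4 cKO mice it was −0.15 (adjusted p = 0.703 from edgeR). Among the P4 mice alone, 2 of each genotype, it was −0.07 (adjusted p = 0.989 from edgeR). Without B8 it was −0.48 (adjusted p = 0.0107 from edgeR), where 46.7% of all genes were called, and without both A4 and B8 it was −0.40 (adjusted p = 0.0453 from edgeR), where 37.5% were called. With limma-voom and sample quality weights, which gave B8 a weight of 0.167 against 0.857 to 2.89 for the others, it was −0.43 (adjusted p = 0.0117 from limma), and 48.5% of all genes were called. That fit changes the tool and the weights together, and their parts were not separated. In each of these settings a large share of all genes was called along with *Tac1*. When age entered the model the log2 fold change of *Tac1* was −0.29 (adjusted p = 0.308 from edgeR). The difference between the P2 and P4 cKO mice was not tested. No P2 control was sequenced, so genotype and age cannot be told apart in the P2 mice.

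*Tac2* (ENSMUSG00000025400.11, chr10:127724478-127731768, plus strand) rested on few reads. It had 38, 74 and 24 counts in controls A2, A4 and A6, and 9, 6, 9 and 11 counts in B1, B7, B8 and B9, although the cKO libraries B7 and B9 were the deepest. The group sums were 136 counts over 3 controls and 35 counts over 4 cKO mice. In CPM the lowest control was A6 at 0.876 (95% Poisson interval 0.562 to 1.30) and the highest cKO mouse was B1 at 0.321 (0.147 to 0.609). The intervals of this nearest pair overlap slightly, whereas the groups do not. The cKO mean was 13.3% of the control mean, and the log2 fold change was −3.00 (SE 0.495, 95% interval −4.11 to −1.89, adjusted p = 0.138 from edgeR). In the exact permutation test on log2 CPM the p was 0.05714, the smallest this design can give.

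*Tac2* passed the threshold with DESeq2 (adjusted p = 1.31e-04), with limma-voom (9.43e-04 from limma), against the P2 cKO mice (3.24e-04 from edgeR), without B8 (6.25e-04 from edgeR) and without A4 and B8 (0.00415 from edgeR). It did not pass against the P4 cKO mice (log2 fold change −2.41, adjusted p = 0.667 from edgeR), among the P4 mice alone (−2.17, 0.989) or with age in the model (−2.83, 0.271). Against the P2 cKO mice the log2 fold change was −3.66, and the difference between the ages was not tested. Its log2 fold change lay between −3.66 and −2.17 over the 18 settings in which it could be fitted. *Tac2* is also known from the medial habenula and the hypothalamus, which lie outside the dorsal midbrain. Markers of the medial habenula summed to 36.6 to 53.0 CPM in controls and 43.1 to 45.6 CPM in cKO mice, and all 6 were counted in every library. This sum was highest in A4, as were 2 of its 6 genes, among them *Nr4a2* at 14.96 CPM against 2.95 to 8.03 CPM in the other mice. The hypothalamic markers summed to 2.82 to 6.92 CPM in controls and 1.55 to 3.06 CPM in cKO mice, with 3 of the 6 found counted in every library. The hypothalamic sum was also highest in A4, the control with the highest *Tac2*, where *Pomc* made up 5.50 CPM of it. The other 2 genes counted in every library, *Agrp* and *Gnrh1*, were not highest in A4. The part of either tissue in the *Tac2* difference was not tested.

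Of the receptor genes, *Tacr1* and *Tacr3* were measured far above the floor, and neither was called in any setting. *Tacr1* (ENSMUSG00000030043.11, chr6:82402334-82560104, plus strand) was at 22.2, 14.96 and 15.3 CPM in controls A2, A4 and A6, and at 20.1, 26.3, 20.1 and 21.0 CPM in cKO mice B1, B7, B8 and B9. Control A2 was above 3 of the 4 cKO mice, and the other controls were below all of them. The log2 fold change was 0.33 (SE 0.188, 95% interval −0.09 to 0.75, adjusted p = 0.249 from edgeR), and the exact permutation p was 0.2286. In none of the 19 other settings did *Tacr1* pass the threshold, and the lowest adjusted p was 0.0576 with limma-voom. Against the P2 cKO mice its log2 fold change was 0.42 (adjusted p = 0.0867 from edgeR) and against the P4 cKO mice 0.21 (adjusted p = 0.713 from edgeR). Without A2, the control with the highest *Tacr1*, it was 0.52 (95% interval 0.08 to 0.96, adjusted p = 0.228 from edgeR).

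*Tacr3* (ENSMUSG00000028172.5, chr3:134829007-134934579, plus strand), the receptor gene for neurokinin B, was at 13.9, 12.7 and 15.1 CPM in controls A2, A4 and A6, and at 14.5, 17.3, 12.7 and 15.2 CPM in cKO mice B1, B7, B8 and B9. The groups overlapped almost fully, with B7 alone above the controls by more than 1 CPM. The log2 fold change was 0.11 (SE 0.161, 95% interval −0.25 to 0.47, adjusted p = 0.662 from edgeR, exact permutation p = 0.4571). With 1 mouse left out it lay between 0.04 and 0.18. Against the P2 cKO mice it was 0.21 (adjusted p = 0.269 from edgeR). Its sign was negative against the P4 cKO mice (−0.03, adjusted p = 0.962 from edgeR) and in the P4 mice alone (−0.09). The intervals of *Tacr3* and of *Tac2*, the gene of its ligand, did not overlap, since that of *Tac2* ends at −1.89, but the difference itself was not tested.

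**Figure D3:**
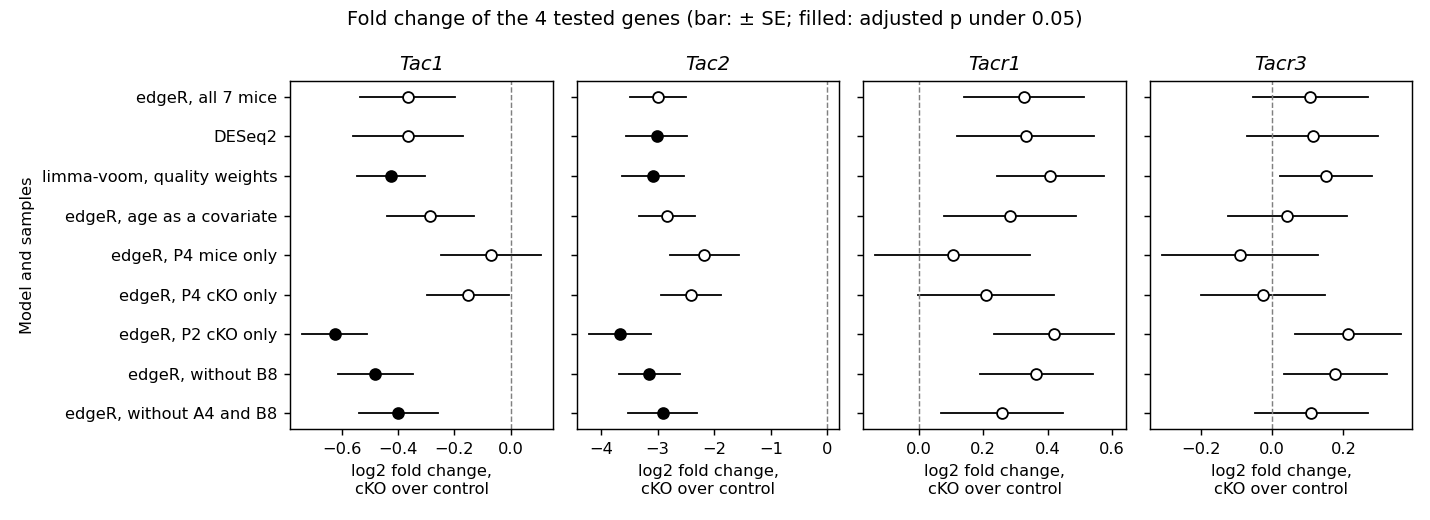
Log2 fold change of cKO over control for *Tac1*, *Tac2*, *Tacr1* and *Tacr3* (x axes, which differ in scale) under 9 models or sample sets (rows), with bars of ± 1 SE and filled points for an adjusted p under 0.05. *Tac2* is far below 0 in every row (−3.66 to −2.17), *Tac1* is below 0 in every row and filled in 4, and neither receptor is filled in any.

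The second comparison set ligands against receptors within each mouse, with ratios of CPM per kb. The ratio of *Tac2* to *Tacr3* was 0.311, 0.399 and 0.158 in controls A2, A4 and A6, and 0.0602, 0.0147, 0.0478 and 0.0232 in B1, B7, B8 and B9. The receptor's mRNA thus exceeded that of its preferred ligand's precursor in all 7 mice. The ratios of the groups did not overlap, as the *Tac2* levels themselves did not. The controls had a *Tac1* to *Tacr1* ratio of 6.26 to 10.9 and the cKO mice one of 3.90 to 6.87, above 1 in every mouse, with the groups overlapping through A2 and B8. The summed ligand level was 3.16 to 4.66 times the summed receptor level in controls and 1.83 to 3.32 times in cKO mice, again with overlap. These values are from mRNA of the dissected tissue, and peptides are carried along axons, so they do not give the ratio at any synapse.

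The make-up of the ligand mRNA was dominated by *Tac1* in both groups. *Tac2* made up 5.08, 5.07 and 2.95% of the summed ligand level per kb in A2, A4 and A6, and 1.21, 0.425, 0.750 and 0.683% in B1, B7, B8 and B9. *Tac1* exceeded *Tac2* by 18.7 to 32.9 times in controls and 81.3 to 234 times in cKO mice. In this ratio of 2 transcripts within a library, sequencing depth and the scaling between libraries cancel, but the counting error of *Tac2* does not. The groups did not overlap in it, as they did not in *Tac2* itself, whereas those of *Tac1* overlapped. The ratio is therefore no separate observation. The receptor side was shared nearly evenly, with *Tacr1* at 37.0 to 48.0% of the summed receptor level in controls and at 44.4 to 48.0% in the cKO group.

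The third comparison covered 40 genes around tachykinin signalling in 4 lists. All 40 were tested. edgeR called 0 of them, 15 had an unadjusted p under 0.05 (9 higher and 6 lower in cKO mice, against 30.4% of all genes), and DESeq2 called 1, *Itpr1*, of the 39 to which it gave an adjusted p, against 10.4% of all genes.

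Of the 10 genes for peptide maturation and dense-core vesicles, 1 was higher and 3 were lower in cKO mice at an unadjusted p under 0.05, and the median log2 fold change was 0.10 against 0.00 over all genes. *Pcsk1n*, which encodes the proSAAS inhibitor of prohormone convertase 1, was at 285, 433 and 286 CPM in A2, A4 and A6, and at 148, 62.6, 314 and 62.2 CPM in B1, B7, B8 and B9 (log2 fold change −1.19, SE 0.511, adjusted p = 0.155 from edgeR). B8 was within the control range, the P4 mouse B1 was also below it and the P2 mice B7 and B9 were lowest, the same order of cKO mice as for *Tac1*. *Pcsk1*, the convertase itself, had a log2 fold change of 0.43 (SE 0.243, adjusted p = 0.245 from edgeR). *Cpe*, the carboxypeptidase that trims the cut peptides, was the most abundant of the list, at 1923 to 2143 CPM in controls and 1443 to 1865 CPM in cKO mice without overlap (log2 fold change −0.33, SE 0.126, adjusted p = 0.140 from edgeR).

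Of the 9 peptidases in the list for peptide breakdown, 1 was higher and 0 were lower at an unadjusted p under 0.05, and the median log2 fold change was 0.19. *Mme* encodes neprilysin, which cleaves substance P at the cell surface. It was at 8.17, 6.62 and 5.77 CPM in A2, A4 and A6, and at 10.3, 14.99, 8.33 and 10.6 CPM in B1, B7, B8 and B9 (log2 fold change 0.69, SE 0.234, adjusted p = 0.138 from edgeR). Its groups did not overlap, although B8 was above A2 by under 0.2 CPM. *Thop1*, a cytosolic oligopeptidase, had a log2 fold change of −0.50 (SE 0.224, adjusted p = 0.165 from edgeR), and *Prep* one of 0.19 (SE 0.140, adjusted p = 0.361 from edgeR). *Prep* had the highest level of the list by the mean of both genotypes, although *Nln* was above it in the cKO mean (107 against 105 CPM).

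Of the 14 genes of the Gq pathway, 5 were higher and 3 lower at an unadjusted p under 0.05, and the median log2 fold change was 0.18. *Itpr1*, the calcium release channel gated by inositol trisphosphate, was at 17.4, 16.8 and 16.9 CPM in A2, A4 and A6, and at 33.2, 34.0, 18.7 and 30.4 CPM in B1, B7, B8 and B9. B8 was close to the controls and the other 3 cKO mice were well above them. The log2 fold change was 0.77 (SE 0.209, adjusted p = 0.138 from edgeR and 0.0269 from DESeq2). *Prkca*, a protein kinase C, had a log2 fold change of 0.64 (SE 0.220, adjusted p = 0.138 from edgeR), and *Gnaq*, which encodes the Gq alpha subunit and had the highest mean level of the list, one of 0.03 (SE 0.142, adjusted p = 0.911 from edgeR).

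Of the 7 receptor kinases and arrestins that desensitize receptors of this class, 2 were higher and 0 lower at an unadjusted p under 0.05, and the median log2 fold change was 0.02. *Grk5* was at 8.09 to 9.57 CPM in controls and 10.3 to 14.9 CPM in cKO mice without overlap (log2 fold change 0.54, SE 0.181, adjusted p = 0.138 from edgeR). *Grk3* had a log2 fold change of 0.43 (SE 0.174, adjusted p = 0.146 from edgeR), and *Arrb1*, the most abundant of the list, one of 0.17 (SE 0.120, adjusted p = 0.347 from edgeR).

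The calls in these lists turned on B8. Without B8, edgeR called 21 of the 40 genes, 12 higher and 9 lower, beside the 46.7% of all genes called in that setting, and without A4 and B8 it called 19, beside 37.5% of all genes. Of the 12 genes named above, 8 were called without B8, and the same 8 without A4 and B8. Most of the 12 were named for the largest fold changes of their lists in these same mice, and the 2 settings share most mice. These calls are therefore no separate support. Lower without B8 were *Pcsk1n* (log2 fold change −1.89, adjusted p = 3.37e-04 from edgeR), *Cpe* (−0.42, 0.00452) and *Thop1* (−0.75, 6.41e-04). Higher were *Mme* (0.81, adjusted p = 0.00574 from edgeR), *Itpr1* (0.93, 1.27e-04), *Prkca* (0.80, 2.99e-04), *Grk5* (0.64, 0.00416) and *Grk3* (0.55, 0.00170). *Pcsk1*, *Prep*, *Gnaq* and *Arrb1* did not pass in either setting. Among the 3 cKO mice left in either setting, B7 and B9 were at P2, so genotype and age are more closely tied there than with all mice.

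**Figure D4:**
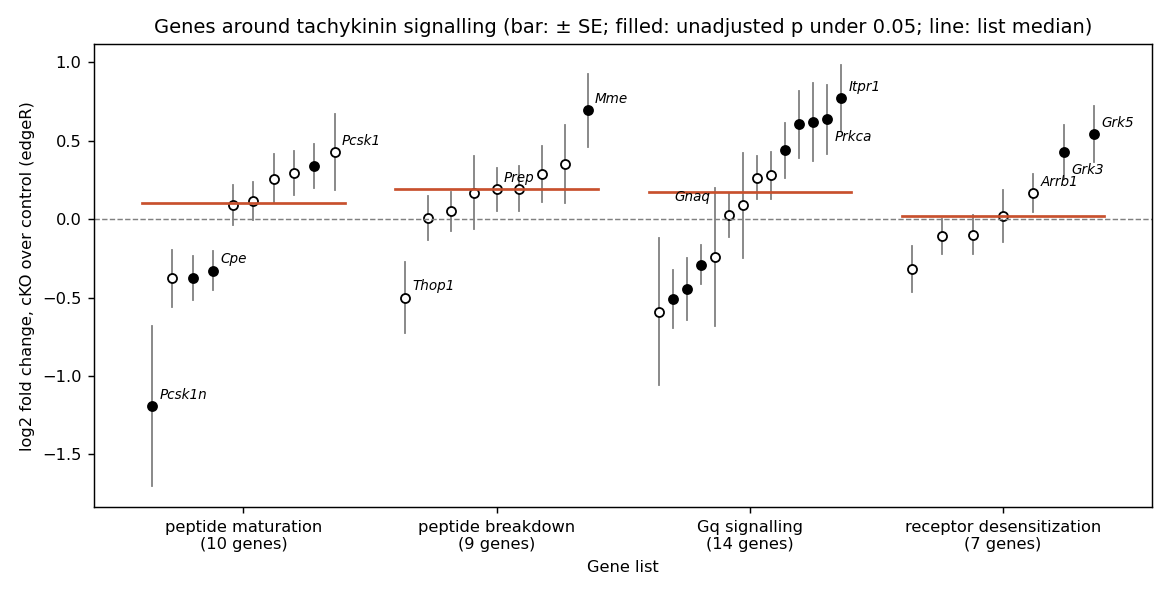
Log2 fold change of cKO over control (y axis, edgeR) for the 40 genes of the 4 lists (x axis), with bars of ± 1 SE, filled points for an unadjusted p under 0.05 and a line at each list's median. The medians lie between 0.02 and 0.19, and *Pcsk1n* at −1.19 and *Itpr1* at 0.77 are the lowest and highest points.

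The genes whose profile over the 7 mice was most like that of a member were sought among 15512 protein-coding genes, by the root mean square (RMS) difference of centred log2 CPM. For *Tac2* the nearest gene was *Brn3b* itself (RMS 0.58), followed by *Adad2* (0.65) and *Cryba4* (0.66), a lens crystallin gene. For *Tac1* the nearest were *BC029722* (0.04), *Cers1* (0.04), a ceramide synthase, and *Syn1* (0.04), a synaptic vesicle protein of neurons at 251 to 448 CPM. Those for *Tacr1* were *Itgb3bp*, *P2rx3* and *Dnah1* (0.08 to 0.09), and those for *Tacr3* were *Stat2*, *Mbd4* and *Pxk* (0.04 each). With 7 libraries and this many candidates some genes lie close to any profile, and the larger distances for *Tac2* go with its low counts. The study picked *Tac2* from these libraries for its large drop, and *Brn3b* is the deleted gene. Their nearness therefore repeats the genotype difference and is no separate observation. Among the cKO mice *Brn3b* was highest in B9 and *Tac2* in B1.

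Because the gene of the deleted POU-domain factor was the nearest to *Tac2* by this measure, though not close, the sequence in front of *Tac2* is shown. It is the 250 bases before the annotated start of the gene (RefSeq, GRCm38.p6, chr10:127724228-127724477, plus strand), with the 1 copy of the core TAAT in capitals.

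*Tac2*, upstream: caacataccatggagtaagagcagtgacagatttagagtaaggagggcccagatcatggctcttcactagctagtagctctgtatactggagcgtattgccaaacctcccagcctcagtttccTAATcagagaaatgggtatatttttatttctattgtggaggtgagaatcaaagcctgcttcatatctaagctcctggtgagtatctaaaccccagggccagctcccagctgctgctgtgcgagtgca

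The promoter windows of the 6 genes (250 bases before to 50 after the start) were searched on both strands for TAAT and for TAATTA and ATTAAT, both of which contain it on one strand or the other. TAAT was found once in the window of *Tac2*. In that of *Tac1* it matched once on each strand, both within 1 TAATTA, which reads the same on both strands. TAAT is held by 58.0% of 32851 promoter windows and TAATTA by 5.29%, and ATTAAT, held by 4.75%, was found in none of the 6. The windows of *Tac4* and the 3 receptor genes held none of these motifs. These are matches of letters in a short window and say nothing about binding of the factor there or elsewhere.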

How the data were processed

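The authors prepared strand-specific libraries of polyadenylated RNA from 3 control and 4 cKO mice, and used TopHat2 and Bowtie2 to align the trimmed reads to GRCm38.p5. Pairs were assigned to GENCODE genes by HTSeq. HTSeq's strand and overlap options are not given in the sources used here. The deposited values are raw counts for 52636 genes. Entries that name no gene (30.98 to 38.18% of read pairs) were left out. Symbols, positions and exon lengths came from a later GENCODE release on the same build, which matched 52489 of the gene identifiers, and promoter windows came from RefSeq. No annotated gene overlaps a member.

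Genotype and age came from the sample labels and each library is 1 mouse. Genes that passed filterByExpr (minimum count 10, minimum total 15) were scaled by TMM and tested with edgeR 4.0.16 (quasi-likelihood, Benjamini-Hochberg adjustment over 21817 genes, R 4.3.3). CPM used TMM library sizes, and log2 CPM a prior count of 2. Levels between genes were divided by merged exon length. DESeq2 1.42.0, limma 3.58.1 (voom with quality weights), other scalings, filters and sample sets were alternatives. The edgeR step was tested on simulated data. Poisson intervals and the floor of 3 counts cover counting error only.

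The members and gene lists were chosen with earlier results of these data known. The named genes were the members, *Brn3b*, per list the genes edgeR called or else the 2 with the largest absolute log2 fold change and the 1 with the highest mean CPM, and per tested member the 3 protein-coding genes of most similar profile. Of 107 symbols in all lists, 2 were not found.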

Additional observations from a re-analysis of the deposited data

Results flagged for a closer look

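Among 52 values examined in the 4 cKO mice, 3 had 1 mouse farther from the rest than Dixon's 95% limit, which is set on the gap to the nearest mouse as a share of the group's range. Chance alone passes it in about 5% of groups. *Tacr1* was at 26.3 CPM in B7, above the other cKO mice (gap 0.862 of the range), and without B7 its log2 fold change was 0.23 (adjusted p = 0.491 from edgeR). *Itgb3bp*, a gene named for its similarity to *Tacr1*, was at 5.70 CPM in B7 (gap 0.982), and is no separate observation for that reason. The dopaminergic neuron markers summed to 7.39 CPM in B8 (gap 0.852), the mouse that was also highest in serotonergic markers, and their part in the results of B8 was not tested.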

How the results depend on the processing

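The log2 fold changes of *Tac1*, *Tac2* and *Tacr1* kept their direction in every setting in which they were fitted (19, 18 and 19 settings). *Tac1* (edgeR, not called) was called with limma-voom (−0.43), against the P2 cKO mice (−0.63) and without A4 and B8 (−0.40), and lay between −0.48 and −0.25 with 1 mouse left out, called without B8 only. Among the P4 mice it was −0.07 (adjusted p = 0.989 from edgeR). *Tac2* was called with DESeq2 (−3.02), limma-voom (−3.08), against the P2 cKO mice (−3.66) and without A4 and B8 (−2.91), and lay between −3.31 and −2.74 with 1 mouse left out, called without B8 only. *Tacr3* turned to −0.0916 among the P4 mice and −0.0263 against the P4 cKO mice. The number of genes called was 1 with edgeR, 1994 with DESeq2, 10583 with limma-voom, 10425 against the P2 cKO mice, 0 among the P4 mice by edgeR (245 at an unadjusted p under 0.05) and 7848 without A4 and B8, and 1 to 9867 with 1 mouse left out, the highest without B8. The corresponding numbers among the 40 genes of the 4 lists were 0 with edgeR, 1 with DESeq2, 22 with limma-voom, 23 against the P2 cKO mice, 19 without A4 and B8, and 0 to 21 with 1 mouse left out, the highest without B8. The causes were not tested. Leaving out A4 and B8 together was chosen after seeing the data.

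With the longest transcript as the length, the control and cKO levels were 38.6 and 30.0 CPM per kb for *Tac1*, 1.68 and 0.224 for *Tac2* and 3.48 and 4.36 for *Tacr1*, which follows from the shorter length. With at least 10 counts required in every library *Tac2* could not be tested, and its 6 to 11 counts per cKO mouse limit how closely its level is known. No paired analysis was possible because the labels name no litter or pair that joins control and cKO mice.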
